A study of Mus musculus with 11 samples.

Results

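Fc receptors, lysozymes and other genes shared by myeloid cells were examined in sympathetic ganglia of aged mice that lack apolipoprotein E and of wild-type mice. The 10 genes were Fcgr1, Fcgr2b, Fcgr3, Fcer1g, Lyz1, Lyz2, Mpeg1, Laptm5, Itgb2 and Cd14. They were taken by name: every probe set whose platform annotation carried exactly 1 of these symbols was a member, which gave 17 probe sets of the 20380 that carried 1 symbol, and 10 of 12393 genes. The animals were male C57BL mice of 78 weeks from the Jackson Laboratory, kept on normal chow. The arrays numbered 6 from mice of genotype apoE-/- (Apoe-deficient) and 5 from wild-type mice. Ganglia were taken from fresh-frozen tissue by laser capture, and total RNA was hybridised to 1 array per sample. The labels do not tie arrays to animals, so the p-values measure the spread between these arrays, which may be technical, and are too small if arrays share an animal.

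Fc receptors bind the constant region of antibodies. In the mouse, Fcgr1 and Fcgr3 encode activating receptors for IgG that signal through the gamma chain encoded by Fcer1g, while Fcgr2b encodes the inhibitory receptor, which recruits phosphatases and also sits on B cells and mast cells. Lysozymes cleave the peptidoglycan of bacterial cell walls, and Lyz2 is a common marker of macrophages and neutrophils, whereas Lyz1 is best known from Paneth cells of the gut. Mpeg1 encodes perforin-2, a pore-forming protein of macrophages, Laptm5 a lysosomal membrane protein of haematopoietic cells, Itgb2 the common beta chain of the leukocyte integrins, and Cd14 a co-receptor for bacterial lipopolysaccharide. In a ganglion such transcripts can come from resident macrophages and infiltrating leukocytes among the neurons and satellite glia.

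The deposited signals are linear, with a trimmed mean of 500.2 on every array. They are compared below on the log2(signal + 16) scale after quantile normalisation, which understates the change of low probe sets. A value is called when its adjusted p from limma, computed over all features tested, is under 0.05. A probe set was tested only when 5 or more arrays exceeded a log2 value of 6.98, which is the 40th percentile over the table. Of the 17 member probe sets, 14 passed this filter, and 9 of the 10 genes had at least 1 that did. Itgb2 passed only through the Apoe-deficient arrays, of which 6 were past the filter value, against 3 wild-type arrays, so the filter itself favoured a difference in that direction.

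The label check held in all 11 arrays. In Apoe-deficient ganglia the Apoe signal averaged 143 ± 84.6 (SD, n = 6) and reached at most 268.2, and in wild-type ganglia it averaged 15155 ± 3020 (SD, n = 5) and was at least 11830.3. The tissue label was matched by noradrenergic neuron markers, of which 8 of 10 had a probe set and all 8 were past the filter. Median signals ran from 163 to 188.6 per array, and rank correlations between arrays from 0.94 to 0.98. The arrays stood apart in the signal of the 16 probe sets for control RNAs added at hybridisation. Apoe-deficient replicates 2, 3 and 4 had the lowest control signal (mean log2 10.51 to 10.75), the middle level (11.45 to 11.75) held replicate 5 of the Apoe-deficient group and replicates 3, 4 and 5 of the wild-type group, and the highest level (12.16 to 12.93) replicates 1 and 6 of the Apoe-deficient group and 1 and 2 of the wild-type group. The lowest level held no wild-type array, so the called members are also given within the other 2 levels, and the called genes of the lists further down in a paragraph of their own.

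With each gene represented by its probe set of highest mean, 3 of the 9 member genes tested rose in Apoe-deficient ganglia: Lyz2, Mpeg1, and Lyz1 by a probe set that may also read Lyz2. None of the members fell, and Fcgr2b, Fcgr3, Fcer1g, Laptm5, Itgb2 and Cd14 did not pass. Over all 8433 genes tested 1.93% were called, 1.26% higher and 0.676% lower. The median difference of the 9 was 0.61 on the log2 scale, against -0.041 over all genes tested. When each probe set was tested on its own, 8 of the 14 were called higher and 0 lower, where of all 12757 probe sets 1.43% were called and 0.988% were called higher. These 8 belonged to 5 genes, since 3 probe sets of Fcgr2b and 1 of Laptm5 joined those of Lyz1, Lyz2 and Mpeg1. In 8 of the 14, 6 of 6 Apoe-deficient arrays lay above all 5 wild-type arrays, which held for 1.40% of all probe sets tested. These 8 take in Fcer1g, which was not called, and leave out Mpeg1. In bulk tissue, more cells of a type and more RNA per cell cannot be told apart.

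**Figure D1:**
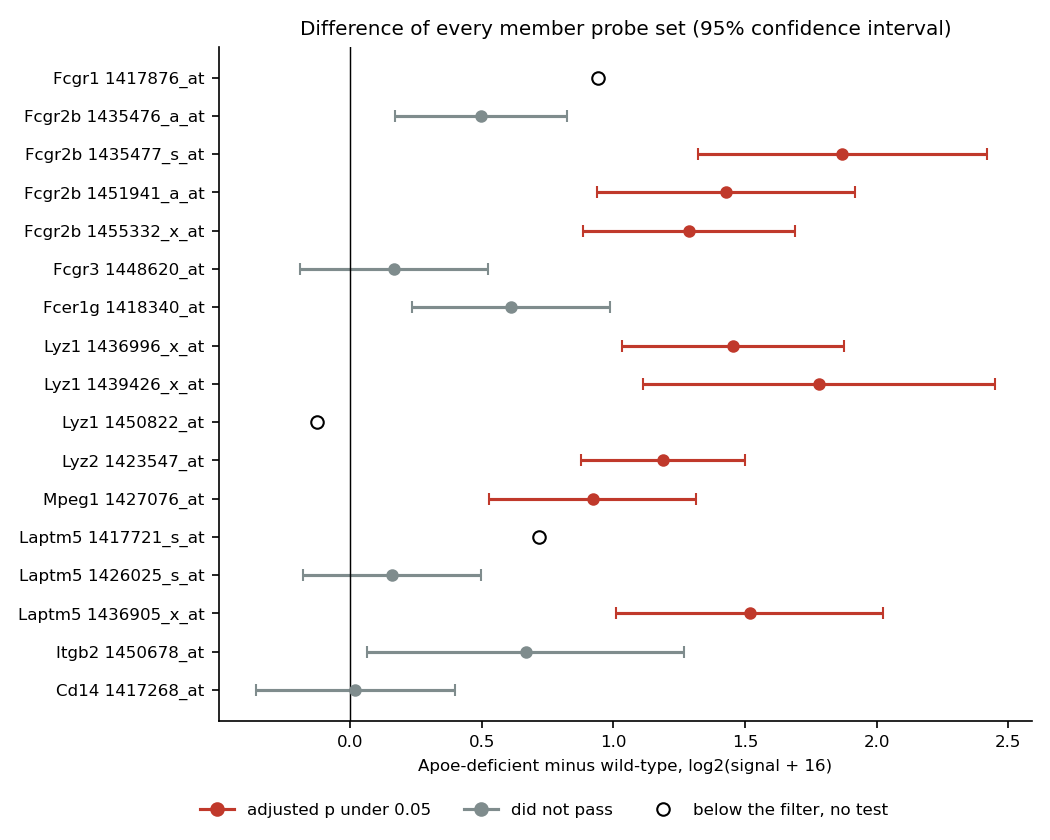
Difference between the group means for each of the 17 member probe sets, Apoe-deficient minus wild-type, on the log2(signal + 16) scale, with the 95% confidence interval from the limma fit over all probe sets. Red points are the 8 probe sets with an adjusted p under 0.05, grey points those that did not pass, and open circles the 3 below the filter, which have no test. Probe sets of Fcgr2b run from 0.50 to 1.87 and those of Laptm5 from 0.16 to 1.52.

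The lysozyme genes had the smallest adjusted p-values among the members. Lyz2 had a lowest, median and highest signal of 2092.5, 2605 and 4001.5 in Apoe-deficient ganglia, against 1149.8, 966.5, 1127.3, 1313.6 and 1259.8 in the 5 wild-type arrays. The groups did not overlap, and the mean signals stood in a ratio of 2.37. Its log2 difference was 1.19 (SE 0.15, limma adjusted p = 0.000694 over all genes). Leaving out each array in turn kept the Lyz2 difference between 1.08 and 1.26 and its call in 11 of 11 fits. Within the high control level the difference was 1.17, from 2 arrays a group, and within the middle level 0.92, from 1 Apoe-deficient and 3 wild-type arrays. With the level as a block, Lyz2 kept its call (1.06, adjusted p = 0.0259 over all probe sets), as it did without the arrays of the lowest level (1.04, adjusted p = 0.0158).

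Lyz1 was read by 3 probe sets that gave unlike accounts. Probe set 1436996_x_at had a lowest, median and highest signal of 3110.8, 3640.8 and 5318.6 in Apoe-deficient ganglia, against 1696.3, 903.8, 1007.2, 1888.9 and 1570.3 in wild-type ganglia. Probe set 1439426_x_at had 876.8, 1979.5 and 3057.2 in Apoe-deficient ganglia, against 860.0, 501.4, 315.5, 645.4 and 346.5 in wild-type ganglia. Neither showed any overlap, although the lowest Apoe-deficient value of the second, in replicate 5, lay close to the highest wild-type value, in replicate 1. Their differences were 1.46 (SE 0.20, adjusted p = 0.00172 over all probe sets) and 1.78 (SE 0.31, adjusted p = 0.0108). The third probe set, 1450822_at, was near the lower end of the scale in both groups and below the filter, where Apoe-deficient arrays averaged 62.5 ± 30.7 (SD, n = 6) and wild-type arrays 71.8 ± 28.0 (SD, n = 5). It was past the filter value in 1 Apoe-deficient and 0 wild-type arrays. Its difference was -0.13, and it was not tested in the fit. Within the high and middle control levels 1436996_x_at differed by 1.50 and 1.11, and with the level as a block it just missed the threshold over all probe sets (1.33, adjusted p = 0.0524). For 1439426_x_at the same values were 1.37, 1.07 and 1.24 (adjusted p = 0.145). In the fit over genes with this block, where 1436996_x_at stands for Lyz1, Lyz1 kept its call.

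Differences in change between probe sets and between genes were also tested. Each array's log2 value of 1 probe set minus that of another was compared between groups by an exact two-sided permutation test over all 462 splits of the arrays, and p-values were adjusted over 22 such pairs (12 pairs of probe sets of a gene and 10 pairs of genes). The 2 Lyz1 pairs that hold 1450822_at are not read here, since that probe set lay below the filter and such a pair mainly restates the rise of the other. The 2 Lyz1 probe sets that rose differed by -0.33 in their change (1436996_x_at less 1439426_x_at) (SE 0.36, exact permutation adjusted p = 0.44), so no difference between them was detectable with these arrays.

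Names of probe sets on this array family carry their design: an _x_at set holds probes that may also match other transcripts, an _s_at set probes shared by several transcripts, and an _a_at set probes common to alternative transcripts of a gene. Lyz1 and Lyz2 are neighbouring, closely related genes on chromosome 10 with 0 protein-coding genes between them, and both Lyz1 probe sets that rose are of the _x_at kind. Signal from Lyz1 and from Lyz2 transcripts cannot be told apart in them, and a rise of Lyz1 itself is therefore uncertain. The third Lyz1 probe set, 1450822_at, carries none of these marks and showed no rise (-0.13). It lay below the filter in both groups and was not tested in the fit. The change of Lyz1 1436996_x_at exceeded that of Lyz2 by 0.27 (SE 0.15), and this difference did not pass (exact permutation p = 0.067, adjusted p = 0.13). Across arrays, with the group means removed, the values of the 2 had a Pearson correlation of 0.82 over 11 arrays, the highest of the 36 pairs among the 9 member genes tested.

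The likeness of both genes also shows in their promoters, printed here because the 2 genes gave parallel values. The sequences are the 250 bases before the annotated start, from RefSeq on GRCm38.p6, Lyz1 at chr10:117292869-117293118 and Lyz2 at chr10:117282273-117282522, both on the minus strand, 5′ to 3′. Capitals mark their longest shared run, 50 bases that end at the start site.

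Lyz1: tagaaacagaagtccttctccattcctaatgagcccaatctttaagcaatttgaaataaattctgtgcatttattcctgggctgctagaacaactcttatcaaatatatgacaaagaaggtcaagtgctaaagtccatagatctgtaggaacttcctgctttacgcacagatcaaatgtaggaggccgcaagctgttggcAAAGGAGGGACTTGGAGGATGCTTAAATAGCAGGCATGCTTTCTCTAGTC

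Lyz2: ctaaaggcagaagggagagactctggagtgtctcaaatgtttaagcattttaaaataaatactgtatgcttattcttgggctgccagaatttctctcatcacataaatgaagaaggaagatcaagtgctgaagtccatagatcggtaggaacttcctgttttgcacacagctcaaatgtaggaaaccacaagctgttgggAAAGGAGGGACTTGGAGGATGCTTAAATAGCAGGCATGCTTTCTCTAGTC

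Aligned at the start site without gaps, the promoters were identical at 152 of 250 positions (60.8%), and at 92 of the last 100. A motif of the PU.1 type, the letters GAGGAA, read as TTCCTC on the other strand, was searched on both strands. PU.1 is the transcription factor that drives much of the myeloid programme. These letters are not in either lysozyme window. They occurred in 3 of the 8 members with an entry searched (Fcgr1, Fcgr3 and Laptm5) and in 23.3% of all 32851 promoter windows of the same length.

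Fcgr2b, the inhibitory receptor, was read by 4 probe sets, and their changes differed in size. Probe set 1435477_s_at had a lowest, median and highest signal of 715.8, 899.0 and 1673.7 in Apoe-deficient ganglia, against 170.0, 231.0, 326.5, 464.9 and 181.4 in wild-type ganglia. Every Apoe-deficient array lay above every wild-type array, and the ratio of mean signals was 3.71. Its log2 difference was 1.87 (SE 0.26, limma adjusted p = 0.00187 over all probe sets). Probe set 1451941_a_at had 359.5, 536.5 and 1029.1 in Apoe-deficient ganglia, against 143.7, 230.8, 208.3, 273.7 and 172.8 in wild-type ganglia. Probe set 1455332_x_at had 339.4, 418.6 and 795.6 in Apoe-deficient ganglia, against 184.1, 155.5, 179.7, 207.7 and 169.3 in wild-type ganglia. Both again separated the groups without overlap, with differences of 1.43 (SE 0.23, adjusted p = 0.00719) and 1.29 (SE 0.19, adjusted p = 0.0033).

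The fourth Fcgr2b probe set, 1435476_a_at, had the highest mean and stands for the gene in the gene fit. It had a lowest, median and highest signal of 772.5, 1015.9 and 1637.7 in Apoe-deficient ganglia, against 718.1, 815.6, 792.5, 667.3 and 704.9 in wild-type ganglia. Apoe-deficient replicate 1, at 772.5, fell within the wild-type range, while the other 5 lay above it. The difference was 0.50 (95% confidence interval 0.17 to 0.82, adjusted p = 0.105 over all genes) and was not called. Its change was smaller than that of 1435477_s_at by 1.37 (SE 0.30), of 1451941_a_at by 0.93 and of 1455332_x_at by 0.79, with exact permutation adjusted p-values of 0.016, 0.016 and 0.018. The change of 1435477_s_at also exceeded those of 1451941_a_at by 0.44 and of 1455332_x_at by 0.58 (exact permutation adjusted p = 0.024 and 0.021), but these calls held in only 3 and 5 of the 11 sets with 1 array left out. The last pair, 1451941_a_at and 1455332_x_at, differed by 0.14 (SE 0.16, exact permutation adjusted p = 0.44).

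With the control level as a block, Fcgr2b 1435477_s_at kept its call (1.76, adjusted p = 0.0372 over all probe sets), whereas 1451941_a_at (1.17, adjusted p = 0.0985) and 1455332_x_at (1.07, adjusted p = 0.0653) did not. Within the high level the 3 called probe sets differed by 2.03, 1.23 and 1.15, and within the middle level by 1.39, 1.09 and 0.97. The fourth differed by 0.24 and 0.69 within those levels. Without the arrays of the lowest level, 1455332_x_at was called (1.04, adjusted p = 0.0264), while 1435477_s_at (1.65, adjusted p = 0.0546) and 1451941_a_at (1.11, adjusted p = 0.0916) were not. Averaging the 4 probe sets gave the gene a difference of 1.27 (adjusted p = 0.00248), so whether Fcgr2b is called depends on the rule that picks its probe set. The platform annotation gives 3 of the 4 the same source sequence (1435476_a_at, 1435477_s_at and 1455332_x_at), so they are not independent measurements. Among the called ones, 1435477_s_at and 1455332_x_at are of kinds whose probes may also read other transcripts.

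**Figure D2:**
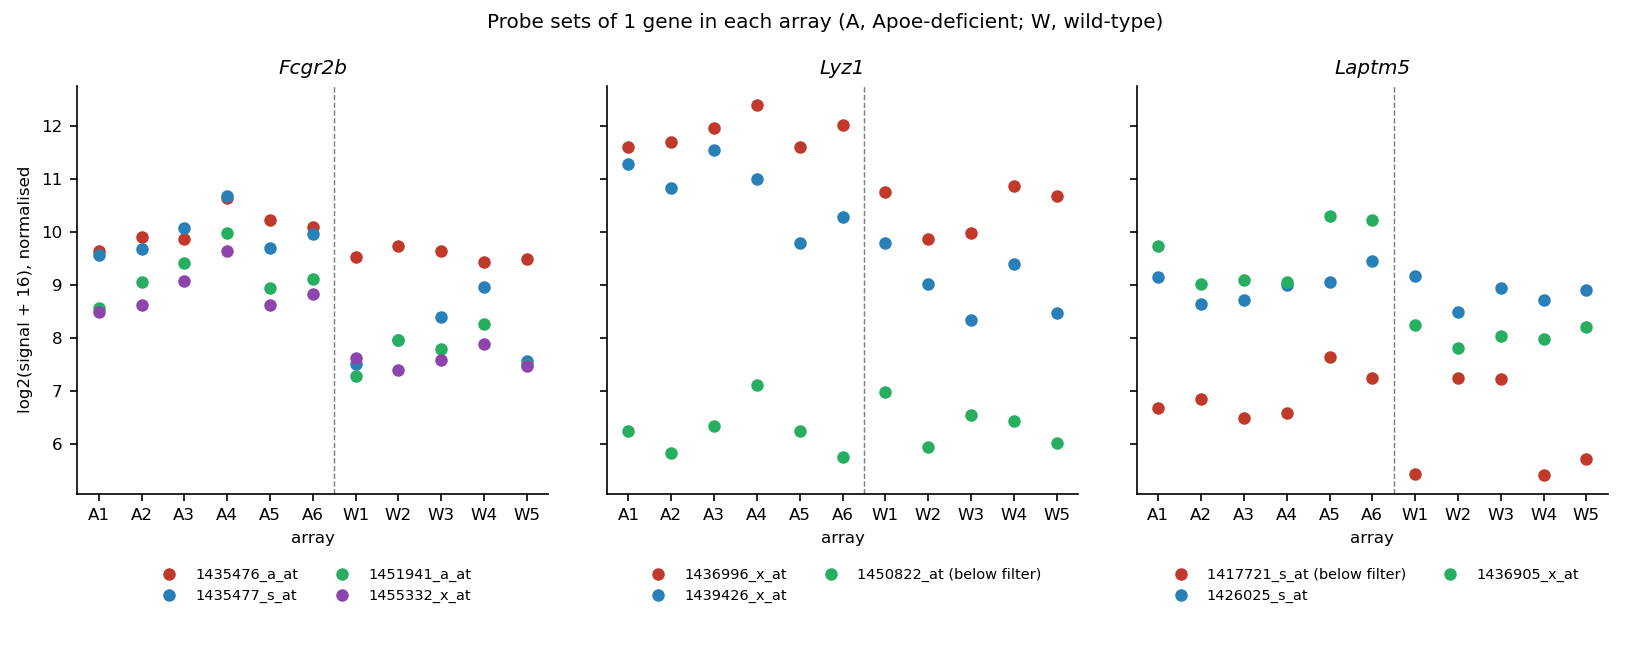
Values of each probe set of Fcgr2b, Lyz1 and Laptm5 in the 6 Apoe-deficient (A1 to A6) and 5 wild-type (W1 to W5) arrays, as normalised log2(signal + 16) on a shared y axis. In Fcgr2b 3 of 4 probe sets lie higher in every Apoe-deficient array than in any wild-type array while 1435476_a_at differs by 0.50, in Lyz1 1450822_at lies low in both groups, and in Laptm5 1436905_x_at lies higher in every Apoe-deficient array than in any wild-type array while the groups overlap in 1426025_s_at.

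Of the activating receptors, Fcgr3 was not called and Fcgr1 was below the filter. Fcgr3 had a lowest, median and highest signal of 223.3, 256.4 and 368.7 in Apoe-deficient ganglia, against 307.8, 270.9, 202.4, 241.7 and 192.7 in wild-type ganglia. The groups overlapped, with 2 Apoe-deficient arrays above all wild-type arrays. The difference was 0.17 (95% confidence interval -0.19 to 0.52, limma adjusted p = 0.59). Set against Fcgr2b 1435476_a_at, the change of Fcgr3 was smaller by 0.33 (SE 0.27), which did not pass (exact permutation p = 0.27, adjusted p = 0.33). That probe set changed least of the 4 of Fcgr2b. The 3 called ones differed by 1.29 to 1.87 and were not tested against Fcgr3, so the result of this pair depends on the Fcgr2b probe set chosen.

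Fcgr1, the high-affinity receptor, lay near the filter value. Its 1 probe set had a lowest, median and highest signal of 89.7, 143.1 and 238.6 in Apoe-deficient ganglia, against 41.7, 70.3, 65.6, 80.0 and 97.9 in wild-type ganglia. Apoe-deficient replicate 5 fell below wild-type replicate 5, and the other 5 Apoe-deficient arrays lay above all wild-type arrays. It exceeded the filter value in 4 Apoe-deficient and 0 wild-type arrays, so it was not tested. The difference was 0.94, and without a filter it did not pass (SE 0.26, adjusted p = 0.116). Within the high control level Fcgr1 differed by 1.03 and within the middle level by 0.095. Its change exceeded that of Fcgr2b 1435476_a_at by 0.45 (SE 0.29, exact permutation adjusted p = 0.22). The 3 called Fcgr2b probe sets differed by 1.29 to 1.87, more than the 0.94 of Fcgr1. As Fcgr1 also lay below the filter, no direction is read from this pair.

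Fcer1g, the signalling chain, had a lowest, median and highest signal of 313.0, 379.6 and 571.2 in Apoe-deficient ganglia, against 295.2, 271.7, 204.0, 289.4 and 206.4 in wild-type ganglia. The groups did not overlap, but the gap between 313.0 and 295.2 was small. Its difference of 0.61 (SE 0.17, 95% confidence interval 0.24 to 0.98) did not pass over all genes (limma adjusted p = 0.0856). The 3 Apoe-deficient arrays of the lowest control level held its 3 highest values (414.2, 457.2 and 571.2). Within the high level Fcer1g differed by 0.20 and within the middle level by 0.40, and with the level as a block by 0.29 (adjusted p = 0.574 over all probe sets). Whether the control level has a part in the Fcer1g difference was not tested beyond these values. Its change exceeded that of Fcgr3 by 0.45 (SE 0.20) and that of Fcgr2b 1435476_a_at by 0.12 (SE 0.20), neither of which passed (exact permutation adjusted p = 0.14 and 0.57). The 3 called Fcgr2b probe sets differed by 1.29 to 1.87, more than Fcer1g, so the direction against Fcgr2b depends on the probe set chosen.

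Fcgr2b, Fcgr3 and Fcer1g lie on chromosome 1, with 1 protein-coding gene, the activating receptor gene Fcgr4, between the first 2 and 7 between Fcgr3 and Fcer1g in the RefSeq annotation. The promoters of the inhibitory and the activating neighbour are printed as a pair because the 2 genes answer to the same antibody ligand with opposite signals. They are the 250 bases before the start on GRCm38.p6 from RefSeq, Fcgr2b at chr1:170976072-170976321 and Fcgr3 at chr1:171059404-171059653, both on the minus strand, 5′ to 3′. Capitals mark the searched motif, here in its TTCCTC form, which begins 6 bases before the Fcgr3 start. These letters are not in the Fcgr2b window.

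Fcgr2b: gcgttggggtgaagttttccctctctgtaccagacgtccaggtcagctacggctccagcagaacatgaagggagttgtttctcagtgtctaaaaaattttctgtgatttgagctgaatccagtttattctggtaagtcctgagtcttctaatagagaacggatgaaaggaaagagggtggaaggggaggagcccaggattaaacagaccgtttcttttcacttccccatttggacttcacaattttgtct

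Fcgr3: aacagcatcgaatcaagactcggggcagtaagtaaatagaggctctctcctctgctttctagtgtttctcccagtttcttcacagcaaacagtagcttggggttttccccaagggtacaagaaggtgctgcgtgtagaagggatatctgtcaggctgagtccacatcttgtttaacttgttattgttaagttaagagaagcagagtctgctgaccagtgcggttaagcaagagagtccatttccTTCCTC

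Among partners and signalling genes of the Fc receptors, 1 gene was called. Of 20 partners and signalling genes, 17 had a probe set, 12 were tested, 1 rose and 0 fell, with a median difference of 0.22. Tyrobp, which encodes the adaptor DAP12, rose by 0.78 (adjusted p = 0.0247). The IgE receptor alpha chain gene Fcer1a differed by 1.01 (adjusted p = 0.0787) and Inpp5d, which encodes the phosphatase SHIP1 that Fcgr2b recruits, by 0.48 (adjusted p = 0.174), and neither passed. Fcer1a is also a mast cell gene. The mast cell list held 4 called genes of 6 tested, with a summed signal of 1878.5 to 5338 in Apoe-deficient arrays and 802.8 to 1928.4 in wild-type arrays, and its part in the Fc receptor values was not tested.

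Mpeg1 rose with some overlap. It had a lowest, median and highest signal of 445.2, 711.5 and 1020.9 in Apoe-deficient ganglia, against 503.2, 295.5, 297.8, 323.2 and 375.3 in wild-type ganglia. Apoe-deficient replicate 1 lay below wild-type replicate 1, and the other 5 Apoe-deficient arrays lay above all wild-type arrays. The difference was 0.92 (SE 0.18, limma adjusted p = 0.0199 over all genes). The call was lost without Apoe-deficient replicate 3 (0.90, adjusted p = 0.0511), wild-type replicate 2 (0.86, adjusted p = 0.064) or wild-type replicate 3 (0.85, adjusted p = 0.053). Within the high control level Mpeg1 differed by 0.58 and within the middle level by 1.03, and with the level as a block it was not called (0.77, adjusted p = 0.213 over all genes).

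Laptm5 was split between its probe sets. Probe set 1436905_x_at had a lowest, median and highest signal of 510.7, 672.2 and 1243.6 in Apoe-deficient ganglia, against 291.6, 207.7, 251.8, 221.1 and 285.9 in wild-type ganglia, a ratio of mean signals of 3.16. No values overlapped, and its difference was 1.52 (SE 0.24, limma adjusted p = 0.00589 over all probe sets). Unlike most other members it was highest in Apoe-deficient replicates 1, 5 and 6 (816.2, 1243.6 and 1152.6), and the 3 arrays of the lowest control level had 514.6, 528.2 and 510.7. With the level as a block its difference was 2.07 (adjusted p = 9.72e-05 over all probe sets), and without the arrays of the lowest level 2.01 (adjusted p = 0.000568). Within the high level it differed by 1.95 and within the middle level by 2.23. Being of the _x_at kind, 1436905_x_at may also read other transcripts, so a rise of Laptm5 itself is uncertain.

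The other Laptm5 probe sets were not called. Probe set 1426025_s_at, which stands for the gene by its highest mean, had a lowest, median and highest signal of 391.4, 505.6 and 682.0 in Apoe-deficient ganglia, against 559.3, 339.5, 480.6, 384.7 and 468.3 in wild-type ganglia. The groups overlapped in all but 1 Apoe-deficient array, and the difference was 0.16 (95% confidence interval -0.18 to 0.49, adjusted p = 0.588 over all genes). Probe set 1417721_s_at was below the filter, with 64.7 to 190.6 in Apoe-deficient ganglia and 22.9 to 140.2 in wild-type ganglia, and a difference of 0.72 that was not tested. The change of 1426025_s_at was smaller than that of 1436905_x_at by 1.36 (SE 0.18, exact permutation p = 0.0022, the smallest these splits can give, adjusted p = 0.016). The value of 1426025_s_at minus that of 1436905_x_at was -1.24 to -0.051 in the Apoe-deficient arrays and 0.69 to 0.92 in the wild-type arrays, with no overlap. Leaving out any 1 of the 5 wild-type arrays made 1436905_x_at the probe set of highest mean, and Laptm5 was then called with differences of 1.46 to 1.57.

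Such splits were common among called genes. Of 2936 genes with several probe sets past the filter, 63 had at least 1 called, and 57 of these also had at least 1 that was not called. In 28 of the 63 the gene was not called in the gene fit, where its probe set of highest mean stands for it, as with Fcgr2b and Laptm5. The Laptm5 promoter, printed because the motif of the PU.1 type occurs in it, is the 250 bases before the start at chr4:130913066-130913315 on the plus strand of GRCm38.p6, from RefSeq. Capitals mark the motif in its TTCCTC form, 38 bases before the start.

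Laptm5: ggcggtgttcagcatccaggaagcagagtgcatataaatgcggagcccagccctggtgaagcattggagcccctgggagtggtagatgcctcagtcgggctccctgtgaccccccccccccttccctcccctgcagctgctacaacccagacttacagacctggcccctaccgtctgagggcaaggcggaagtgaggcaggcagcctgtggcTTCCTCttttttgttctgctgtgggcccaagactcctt

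Itgb2 and Cd14 did not pass. Itgb2 had a lowest, median and highest signal of 99.8, 187.0 and 272.4 in Apoe-deficient ganglia, against 124.5, 55.6, 123.2, 80.3 and 172.6 in wild-type ganglia. Its 6 Apoe-deficient values fell into 2 sets, 99.8 to 128.6 in replicates 1, 2 and 3 and 245.4 to 272.4 in replicates 4, 5 and 6. The difference was 0.67 (95% confidence interval 0.067 to 1.26, limma adjusted p = 0.204). Of 12 integrin partners and ligands, 11 had a probe set, 9 were tested, 1 rose and 0 fell, with a median of 0.29. Fermt3, which encodes kindlin-3, an activator of leukocyte integrins, rose by 1.17 (adjusted p = 0.0116). Its signal averaged 104.2 in wild-type arrays and 258.4 in Apoe-deficient arrays. Without the arrays of the lowest control level Fermt3 was not tested, so the filter favoured its rise. Cytip, a gene for a cytohesin-binding protein of leukocytes, differed by 1.31 (adjusted p = 0.0506) and the adaptor gene Skap2 by 0.43 (adjusted p = 0.064), neither past the threshold. The alpha chain gene Itgam, a partner of Itgb2 in macrophages and neutrophils, lay below the filter at an average signal of 33.4 in Apoe-deficient ganglia and 12.96 in wild-type ganglia.

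Cd14 had a lowest, median and highest signal of 174.6, 299.3 and 381.1 in Apoe-deficient ganglia, against 280.8, 266.8, 316.7, 215.5 and 282.0 in wild-type ganglia. The wild-type range lay inside the Apoe-deficient range. The difference was 0.019 (95% confidence interval -0.36 to 0.39, adjusted p = 0.961), and its sign turned in several alternative fits, so no direction is given. Of 18 Toll-like receptor and CD14 partner genes, 14 had a probe set, 9 were tested, 1 rose and 0 fell, with a median of 0.15. Ly86, which encodes MD-1, the partner of the receptor CD180, rose by 1.18 (adjusted p = 0.00823). The lipopolysaccharide-binding protein gene Lbp differed by 0.66 (adjusted p = 0.0922) and the adaptor gene Myd88 by 0.32 (adjusted p = 0.178), neither past the threshold. Tlr4 differed by -0.0047 and Tlr2 by 0.027, both chosen for mention after their values were seen.

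**Figure D3:**
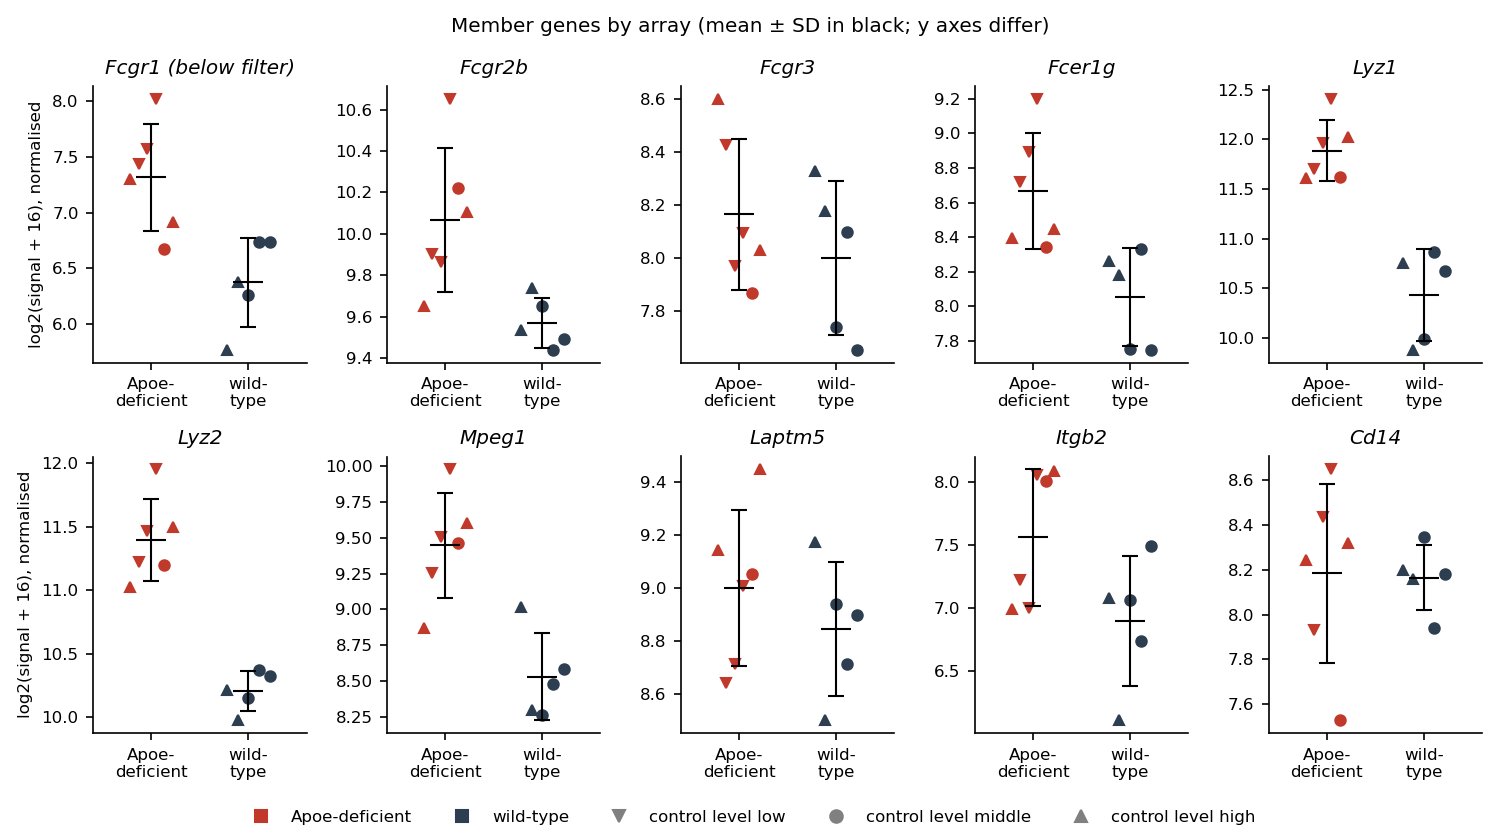
Normalised log2(signal + 16) of the 10 genes in every array, Apoe-deficient in red to the left and wild-type in blue to the right, with the mean ± SD of each group in black and the y axis set per gene. Each gene is shown by the probe set of highest mean, and Fcgr1 by its 1 probe set below the filter. Marker shape gives the level of the hybridisation controls. Lyz1 and Lyz2 show a gap between the groups, and Cd14 has the wild-type range inside the Apoe-deficient range.

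The unequal changes among genes were tested in 10 pairs, in the family of 22. The pairs were set by role, but with earlier results of these data known. Lyz2 rose by 1.03 more than Laptm5 1426025_s_at changed (SE 0.20, exact permutation p = 0.0043, adjusted p = 0.016). The other tested Laptm5 probe set, 1436905_x_at, differed by 1.52, more than the 1.19 of Lyz2, so the direction of this pair depends on the Laptm5 probe set chosen. Mpeg1 rose by 0.90 more than Cd14 changed (SE 0.23, exact permutation p = 0.0065, adjusted p = 0.018). The other 8 pairs did not pass. Lyz2 exceeded Itgb2 by 0.52 (SE 0.27, adjusted p = 0.15), Itgb2 exceeded Cd14 by 0.65 (SE 0.36, adjusted p = 0.19) and Laptm5 1426025_s_at exceeded Cd14 by 0.14 (SE 0.22, adjusted p = 0.57), all by the exact permutation test. None of the 22 pairs passed when the control level was held or its lowest arrays were left out: exact permutation within levels allowed 24 splits and a smallest p of 0.042, and 56 splits without those arrays a smallest p of 0.018. At these sizes, missing the threshold says little about stability. With the level held, Lyz2 exceeded Laptm5 1426025_s_at by 0.71 and Mpeg1 exceeded Cd14 by 0.98, while the difference of 1426025_s_at less 1436905_x_at was -1.72 and that of Fcgr2b 1435476_a_at less 1435477_s_at -1.32.

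Among arrays, Apoe-deficient replicate 4 had the highest signal of its group in 11 of the 17 member probe sets, and wild-type replicate 1 in 7 of 17. Without Apoe-deficient replicate 4 the differences were 1.35 for Lyz1, 0.81 for Mpeg1 and 0.38 for Fcgr2b 1435476_a_at. With the group means removed, the Pearson correlation between member genes over the 11 arrays ran from -0.59 (Fcgr3 and Itgb2) to 0.82 (Lyz1 and Lyz2). Lyz2 and Mpeg1 had 0.78 and Lyz1 and Mpeg1 0.75. Among the 4 Fcgr2b probe sets it ran from 0.42 to 0.89, and between Laptm5 1426025_s_at and 1436905_x_at it was 0.74. These correlations share arrays and normalisation and are given as a description. The mean profile of the 9 genes was most closely followed, among 8330 other genes, by Hscb (0.97), Smc1a (0.91), B2m (0.90), Rpl7a (0.89) and Mbip (0.88), none of which was called between the groups.

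Among other leukocyte genes the called ones were also higher. Of 17 other pan-leukocyte genes all had a probe set, 13 were tested, 7 rose and 0 fell, with a median of 0.85. Cd53, which encodes a tetraspanin of leukocytes, rose by 1.62, Cd48 by 1.48, Cd52 by 1.45, Ptprc, which encodes CD45, by 1.40 and Dock2, an activator of Rac in leukocytes, by 1.38. Arhgdib rose by 1.05 and Lcp1, which encodes an actin-bundling protein, by 0.84. Cd48 and Dock2 averaged a signal of 45.6 and 60.4 in wild-type arrays, against 154 and 158 in Apoe-deficient arrays. Neither was tested without the arrays of the lowest control level, so the filter favoured a rise in both. Coro1a differed by 0.11 and Sash3 by -0.026 without passing, both mentioned after their values were seen.

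Of 29 other myeloid genes, 28 had a probe set, 22 were tested, 8 rose and 0 fell, with a median of 0.53. The complement genes C1qc, C1qa and C1qb rose by 1.43, 1.03 and 0.58. Ctss, which encodes the lysosomal protease cathepsin S, rose by 1.20, Cyba, which encodes a subunit of the phagocyte oxidase, by 1.08, the mannose receptor gene Mrc1 by 0.99 and Cd68 by 0.82. Csf1r, the receptor for the macrophage growth factor, rose by 0.53 with an adjusted p of 0.0498, close to the threshold. Other genes of this list did not rise with them. Spi1, which encodes PU.1, differed by -0.010, Adgre1 by 0.074 and Cebpa by -0.56, none of them called and all mentioned after their values were seen. The median over all genes tested was -0.041, as given above, and neither list is shown to differ from the members.

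**Figure D4:**
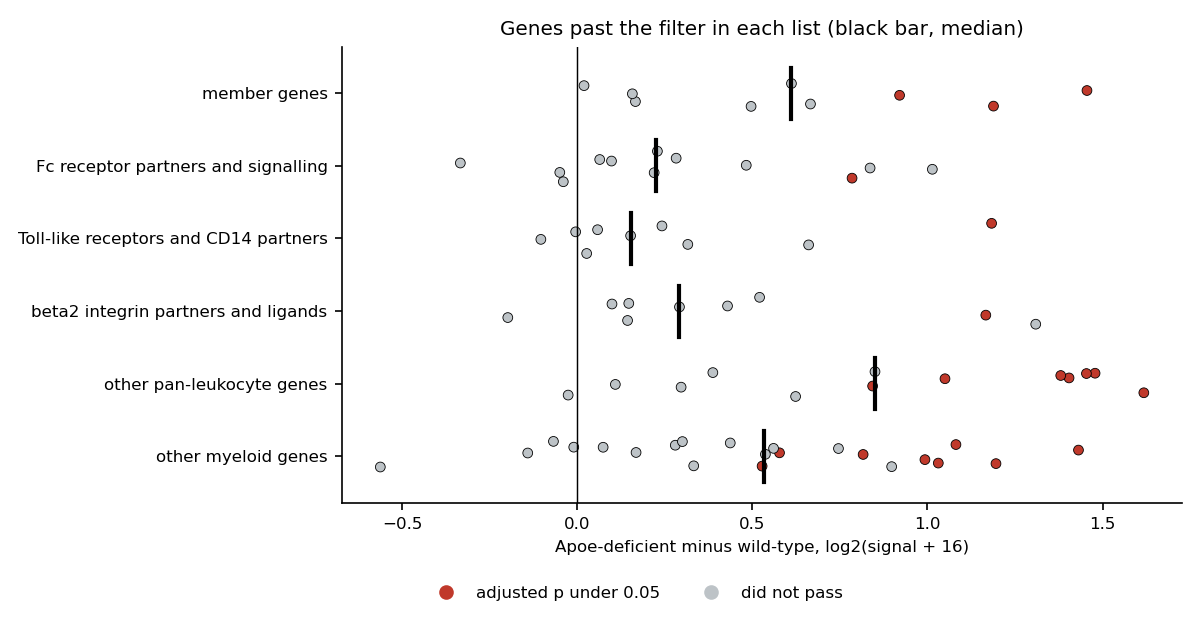
Differences between the group means, Apoe-deficient minus wild-type, on the log2(signal + 16) scale for each gene past the filter among the members and 5 lists of related genes. Red points passed an adjusted p under 0.05, grey points did not, and black bars mark medians. The median is 0.85 for the other pan-leukocyte genes and 0.15 for the Toll-like receptors and CD14 partners, and no called gene lies below 0.

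Markers of other cell types that could carry these transcripts were measured beside them. Of 3 monocyte genes tested 1 rose, Plac8 (1.46), while F13a1 differed by 0.69 without passing. The summed signal of the 5 monocyte genes with a probe set was 1160.4 to 1944.8 in Apoe-deficient arrays and 608.0 to 843.1 in wild-type arrays. Of 3 neutrophil genes tested none was called, Ngp differing by -0.53 and Ltf by -0.38, and the sum over 9 genes was 401.0 to 683.0 in Apoe-deficient arrays and 571.3 to 874.7 in wild-type arrays. The defining neutrophil genes S100a8 and S100a9 averaged 26.5 and 9.95 in Apoe-deficient ganglia and 30.2 and 20.6 in wild-type ganglia, below the filter. Mast cell genes rose in 4 of 6 tested, among them Cpa3 (1.70) and Tpsb2 (2.03), the 2 with the smallest p. The signal of Tpsb2 averaged 35.5 in wild-type arrays and 173.3 in Apoe-deficient arrays, so the filter favoured a rise in it.

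Antibody-secreting cell genes moved too. Of 4 plasma cell genes tested 2 rose, Jchain (4.33) and Ighm (3.76), and the sum over 5 genes was 15941.3 to 73816.1 in Apoe-deficient arrays and 5319.7 to 21477.8 in wild-type arrays. Of 3 B cell genes tested none was called, Ms4a1 differing by 0.39 and Blk by -0.19, with sums of 519.6 to 1736.6 in Apoe-deficient arrays and 564.3 to 736.6 in wild-type arrays. Nkg7 (0.56) was the 1 T and natural killer cell gene tested, and Zbtb46 (-0.35) and Cd209a (0.43) the 2 dendritic cell genes, none of them called. The sums were 435.1 to 1003.3 for the T and natural killer cell list in Apoe-deficient arrays and 324.9 to 668.1 in wild-type arrays, and 528.7 to 850.5 for the dendritic cell list in Apoe-deficient arrays and 459.0 to 671.6 in wild-type arrays.

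The called list genes were also compared with the control level held. Of the 25 called list genes, all 25 were higher in Apoe-deficient arrays within the high and within the middle level, with differences of 0.0011 (Mrc1, middle level) to 5.69 (Jchain, high level). The genes were picked by calls that used these same arrays, so a shared direction was likely beforehand. The middle level also holds only 1 Apoe-deficient array. With the level as a block 10 of the 25 were called over all genes, and without the arrays of the lowest level 6 of the 21 that were then tested. Cd53, C1qa, C1qb, C1qc, Cyba and Plac8 were called under both settings. With the block Cd48, Arhgdib, Fermt3 and Jchain were also called, of which Cd48 and Fermt3 were not tested without the lowest arrays. The other 15 were not called under either setting, among them Tyrobp (0.60 with the block, adjusted p = 0.248), Ly86 (0.96, adjusted p = 0.143), Ptprc (1.56, adjusted p = 0.0791) and all 4 mast cell genes. Cpa3 differed by 2.47 within the high level and by 0.42 within the middle level.

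Tissue markers other than leukocyte genes did not pass. None of 8 noradrenergic neuron genes was called (Gata2 -0.46, Gata3 0.39), with sums of 32940.7 to 56751.3 in Apoe-deficient arrays and 45886.8 to 63536 in wild-type arrays. None of 7 satellite glia genes (Ednrb -0.37, Fabp7 0.28), 6 endothelial genes (Pecam1 0.50, Kdr -0.34) or 3 white adipocyte genes (Fabp4 -0.77, Cidec -0.81) was called. The satellite glia sums were 11118.4 to 20478 in Apoe-deficient arrays and 10252.8 to 17912.2 in wild-type arrays, and the endothelial sums 1091.3 to 1800.9 in Apoe-deficient arrays and 1153.1 to 1526.7 in wild-type arrays. The adipocyte sums spanned 2838.4 to 22956.5 in Apoe-deficient arrays and 9267.6 to 29760.9 in wild-type arrays. The part of these lists in the changes of the members was not tested.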

How the data were processed

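Total RNA of laser-captured sympathetic ganglia was measured on 11 Affymetrix arrays, 6 Apoe-deficient and 5 wild-type. The deposited file holds 1 linear intensity per probe set and array, made with GCOS 1.4, per the submitters' processing notes. Of the signal algorithm and any detection calls, the sources used here say nothing. Signals were taken to log2(signal + 16) after 64 array controls were dropped, quantile normalised, and kept where they exceeded the 40th percentile in at least 5 arrays. Probe sets with several symbols (691) or none (1555) were left out. The linear model of limma 3.58.1 in R 4.3.3 (intensity trend, two-sided, Benjamini-Hochberg, threshold 0.05) was fitted over 8433 genes, each by its probe set of highest mean, and over 12757 probe sets. Of these fits only the gene fit was tried on simulated data, which held no control levels and no correlation between genes. Within-array differences were compared by exact permutation over 22 pairs. The number of arrays limits the precision.

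The members, the gene lists and the tests were chosen with earlier results of these data known. Genes named were all members, Apoe, for each pathway list the 3 genes of smallest p plus every called gene, for each marker list the 2 of smallest p (the marker lists were monocyte, neutrophil, mast cell, B cell, plasma cell, T and natural killer cell, dendritic cell, noradrenergic neuron, satellite glia, endothelium and white adipocyte), and the 5 genes of most similar profile. Itgam, S100a8, S100a9, Tlr2, Tlr4, Coro1a, Sash3, Spi1, Adgre1 and Cebpa were added after their values were seen. Alternatives were no quantile step, pseudocounts of 1 and 64, no filter, no intensity trend, array weights, the hybridisation control level as a block, omission of its lowest arrays, a replicate block, the mean of a gene's probe sets and omission of each array. Promoters came from RefSeq (GRCm38.p6). That table served otherwise for names and gene order only. Protein sequences were not used here. Figures were drawn with matplotlib 3.10.9.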

Additional observations from a re-analysis of the deposited data

How the results depend on the processing

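Between-array normalisation, pseudocount, filter and variance trend left the counts of 3 member genes and 8 member probe sets as they were. Array weights gave 5 member genes and 668 genes in all (290 higher, 378 lower), against 163 (106 higher, 57 lower), and the mean of a gene's probe sets gave 5 member genes, Fcgr2b and Laptm5 among them (adjusted p = 0.00248 and 0.0314). The hybridisation control level as a block gave 2 member genes (Lyz1 and Lyz2), 3 member probe sets and 45 genes in all. Without its 3 lowest arrays 1 member gene (Lyz2), 3 member probe sets and 24 genes were called, where fewer arrays were tested. Of those genes, 36 with the block and 21 without the arrays were among the 163. The 3 member probe sets were Lyz2, Laptm5 1436905_x_at and Fcgr2b 1435477_s_at with the block, and Lyz2, Laptm5 1436905_x_at and Fcgr2b 1455332_x_at without the arrays. Without those arrays Lyz1 missed the threshold (1.33, adjusted p = 0.0508 over all genes) and Lyz2 kept its call. Of the 22 pairs, 0 passed under either setting by exact permutation, of probe sets or of genes, against 8 (2 of them with Lyz1 1450822_at, below the filter) and 2, and the smallest adjusted p was 0.2 with the block and 0.098 without the arrays; at an unadjusted p under 0.05 there were 1 pair of probe sets and 1 of genes with the block, and 4 and 2 without the arrays.

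Leaving out each array in turn gave 2 to 4 member genes, 7 to 9 member probe sets, 75 to 267 genes in all, 6 to 8 pairs of probe sets and 2 to 3 pairs of genes. The count of all genes was 75 when replicate 3 of the Apoe-deficient group was left out, 260 when its replicate 1 was, and 267 when replicate 4 of the wild-type group was. Laptm5 was called only where its other probe set or the mean represented it, and Fcgr2b also with array weights (0.49, adjusted p = 0.0425) and without Apoe-deficient replicate 1 (0.58, adjusted p = 0.045). Fcer1g passed with array weights (0.71, adjusted p = 0.0227).

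Signs turned for values near 0. Cd14 was -0.013 in the gene fit and -0.024 in the probe set fit with array weights, -0.21 with the control level as a block, -0.13 without its lowest arrays, -0.0082 with the replicate block and -0.074 to 0.15 with 1 array left out. The change of Lyz1 1436996_x_at less that of 1439426_x_at was 0.093 with the level as a block, that of Fcer1g less that of Fcgr2b 1435476_a_at was -0.15 with the block and -0.082 without the arrays, and that of Laptm5 1426025_s_at less that of Cd14 was -0.0038 without Apoe-deficient replicate 5 and ran up to 0.24 with other arrays left out. The causes were not tested.

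The titles give both groups the same replicate numbers. Deviations of same-numbered arrays correlated at 0.15, -0.18, -0.032, -0.00032 and -0.18. The labels do not say whether the numbers pair arrays, and so few correlations cannot decide it. A replicate block gave 2 member genes, 7 member probe sets and 185 genes in all, Mpeg1 being the member no longer called (0.89, adjusted p = 0.0585).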
